A study of Schizosaccharomyces pombe
Saccharomyces cerevisiae with 16 samples.

Results

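The genes described here are the 64 genes of budding yeast (Saccharomyces cerevisiae) that the deposited annotation ties to autophagy and to the cytoplasm-to-vacuole targeting (Cvt) pathway. They come from 6859 genes in the table of newly synthesized RNA and 6805 in the table of total RNA, and all 64 are in both. A gene was taken when its annotated biological processes held protein localization by the Cvt pathway (50 genes) or late nucleophagy (17 genes), or when its annotated cellular components held the phagophore assembly site (39 genes). All 3 annotations were on 11 genes, the Cvt one alone on 23 and the phagophore one alone on 10. The rule uses the annotation and no measured value. The 64 genes lie on 13 chromosomes, and their transcripts are 354 to 4779 bases long with a median of 1233, against 1083 for all protein-coding genes. By the deposited descriptions they fall into 6 genes of the Atg1 kinase complex and its scaffolds, 6 of Atg9 traffic and lipid transfer, 4 of the phosphatidylinositol 3-kinase complex, 8 of the ubiquitin-like conjugation systems, 2 for the Cvt cargo receptor and its kinase, 4 sorting nexins and related PX-domain proteins, 9 of TRAPP and Ypt1, 8 of the COG complex, 11 of vacuolar and endosomal fusion and 6 others. The set therefore holds general Golgi and endosome trafficking machinery beside the autophagy-specific proteins. The deposited tables name 49 of the 64, and the other 15 are given by systematic ID.

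Autophagy encloses cytoplasm in a membrane sac, the phagophore, which closes into an autophagosome and fuses with the vacuole, the degradative compartment of yeast. The Cvt pathway uses much of the same machinery in growing cells to carry hydrolase precursors to the vacuole. The Atg1 kinase complex starts the process at the phagophore assembly site, Atg9 vesicles bring membrane, the phosphatidylinositol 3-kinase complex marks that membrane, and a ubiquitin-like conjugation chain attaches Atg8 to its lipids. In rich medium autophagy is held low by TORC1 and protein kinase A, and several ATG genes, ATG8 above all, are known to be transcribed more after starvation.

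The groups were the Med17 degron strain with auxin, the Med17 degron strain with DMSO, the Med14 degron strain with auxin and the Med14 degron strain with DMSO, called Med17 cells and Med14 cells below, each as newly synthesized and as total RNA, with 2 biological replicates per group and 16 libraries in all. Per the labels the strains are OsTIR1 MED17-IAA7 and OsTIR1 MED14-IAA7, that is, the IAA7 degron on a subunit of the Mediator coactivator and the plant F-box protein OsTIR1, placed at his3 under the pGPD1 promoter, in a MATalpha background with deletions in ade2, his3, leu2, lys2, met15, trp1 and ura3. Cultures in YPD had 500 µM auxin (3-IAA), which sends the tagged protein to the proteasome, or DMSO, its solvent, during 30 min, after which a pulse of 4-thiouracil (4tU, 5 mM, 6 min) marked the RNA made in that time. For the Med17 samples, strain and source labels give MED17 and were followed here, although their genotype label gives the MED14 tag. Every group carries OsTIR1, and an OsTIR1 strain without a degron was not analysed here. The degron acts on protein, so the tagged genes' RNA does not check depletion.

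Libraries held 3.83 to 13.96 M raw counts when made from newly synthesized RNA, while those from total RNA held 3.30 to 8.84 M, and replicates correlated at r = 0.978 to 0.991 across genes. The labelled MATalpha mating type was checked against its genes, with 878 to 34369 normalized counts of MF(ALPHA)1 against 0 to 11.4 of the a-cell gene MFA1. Values below are the authors' normalized counts, in which each library's raw counts are multiplied by its own constant, and log2 fold changes use this scale. Their standard error (SE, 2 libraries per group) was worked back from the fold change and the F statistic of its edgeR test. It therefore draws on the spread estimated over all libraries and genes of the fit. Tests are edgeR's quasi-likelihood F test over all genes, two-sided, with Benjamini-Hochberg adjustment, and called means an adjusted p under 0.05. On this scale the median of all tested genes itself moved with auxin, in newly synthesized RNA by -2.71 in Med17 cells and -1.86 in Med14 cells, and in total RNA by -1.38 and -0.76. A direction therefore holds for the authors' scale. TMM scaling, which sets the bulk of genes near 0, is given beside it as the change relative to other genes. In bulk RNA, fewer cells and less RNA per cell cannot be told apart.

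Per kilobase of transcript the members spanned a wide range of levels. In newly synthesized RNA with DMSO, YPT1, a Rab GTPase of early Golgi traffic, was highest with 6479 normalized counts per kb in Med17 cells and 7639 in Med14 cells, followed by ARP2 of the actin-nucleating Arp2/3 complex (5729 and 4451) and PEP4, the vacuolar proteinase A (4676 and 3847). ATG10, the E2-like enzyme that joins Atg12 to Atg5, was lowest at 49.2 and 79.7 per kb, and ATG14, ATG17 and ATG4 were also among the 5 lowest in both strains. The median member stood at 768 in Med17 cells and 666 in Med14 cells, against 797 and 858 for all genes with a count. In total RNA YPT1 and PEP4 were the highest, and ATG10 and ATG14 were the lowest with DMSO, at 17.2 and 39.9 normalized counts per kb in Med17 cells. ATG10 passed the filter on low counts in newly synthesized RNA but not in total RNA, so that 64 and 63 members were tested.

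All 64 members had less newly synthesized RNA with auxin than with DMSO in both strains, on the authors' scale. In the Med17 strain 64 of 64 were called lower in newly synthesized RNA, where 95.0% of all tested genes were called lower and 1.7% higher, with a change of -3.08 for the median member. In the Med14 strain 64 of 64 were also called lower, where 94.2% of all genes were lower and 0.56% higher, with a change of -1.61 for the median member. No member was called higher in either strain, by edgeR at an unadjusted p under 0.05 or by DESeq2. The share called is close to the background, and the sizes are given below. The median member lay below the median of all genes in Med17 cells and above it in Med14 cells, and the summed normalized counts of the members were 12628 and 11423 with auxin against 90599 and 89140.3 with DMSO in Med17 cells, and 24276 and 26008 against 78805 and 85921 in Med14 cells. With TMM scaling the split was 31 lower and 8 higher in Med17 cells (all genes 28.3% and 28.7%) and 8 lower and 24 higher in Med14 cells (all genes 23.3% and 25.4%). Relative to other genes, most members that moved thus stood lower in Med17 cells and higher in Med14 cells.

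**Figure D1:**
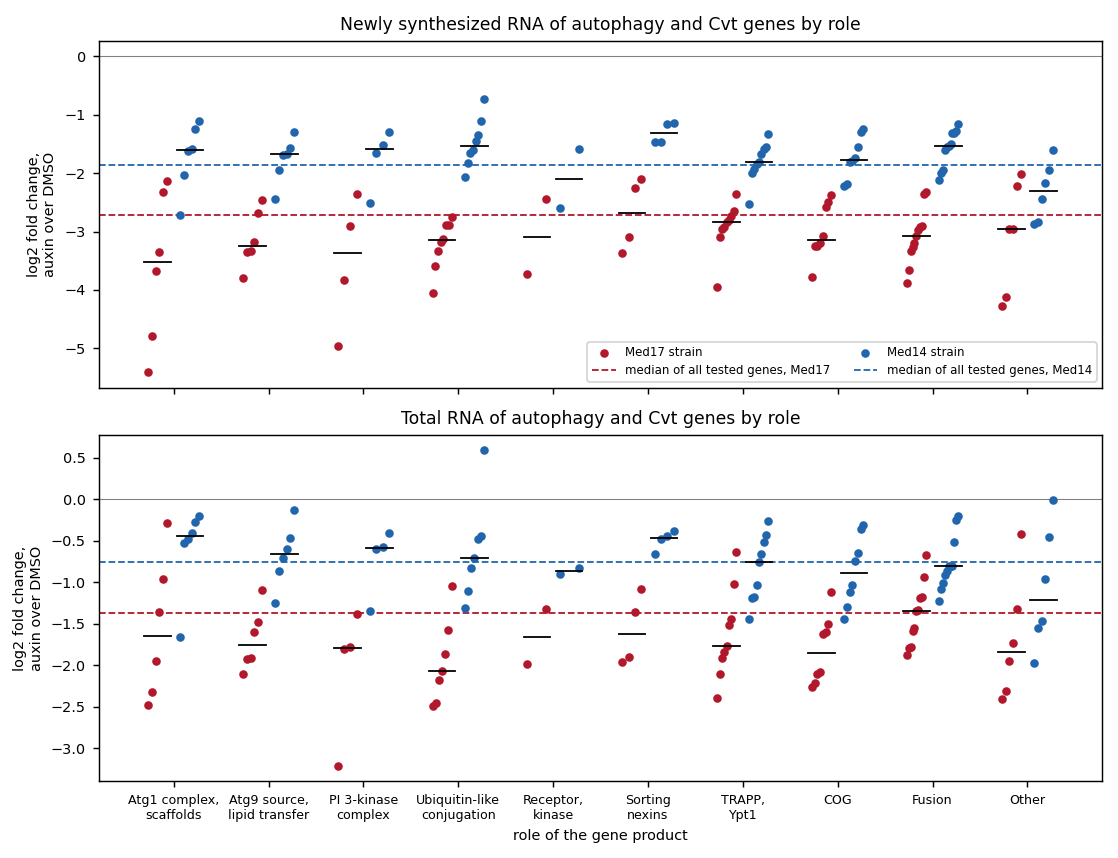
Each point is a member's log2 fold change, auxin over DMSO, grouped by role, for newly synthesized RNA (top) and total RNA (bottom), with the Med17 strain to the left of the Med14 strain, a black bar at each role's median and a dashed line at the median of all tested genes. In newly synthesized RNA every point is below 0, and the median member is -3.08 in Med17 cells and -1.61 in Med14 cells.

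The Atg1 kinase complex and its scaffolds held the lowest change of all members. ATG1, the protein kinase that starts autophagosome formation, had 414 and 325 normalized counts with auxin and 3528 and 3990.0 with DMSO in Med17 cells, and 671 and 679.8 with auxin and 1224 and 1678 with DMSO in Med14 cells. The groups did not overlap in either strain, and the Med17 strain with DMSO was the highest of the 4 groups while the same strain with auxin was the lowest. ATG1 changed by -3.35 ± 0.18 in Med17 cells and -1.11 ± 0.17 in Med14 cells (edgeR adjusted p = 4.5e-12 and 4.79e-06). ATG17, the scaffold that organizes the phagophore assembly site under starvation, had 6.45 and 6.49 normalized counts with auxin and 293 and 265 with DMSO in Med17 cells, and 51.0 and 47.3 with auxin and 332 and 316 with DMSO in Med14 cells. Its Med17 auxin libraries rested on only 9 and 11 raw counts. Its changes of -5.41 ± 0.27 and -2.72 ± 0.21 were the largest fall of any member in Med17 cells and the third largest in Med14 cells. YPL166W, described as an autophagy-specific protein that works with Atg17, had 11.5 and 9.43 normalized counts with auxin and 282 and 299 with DMSO in Med17 cells, and 44.6 and 51.2 with auxin and 171 and 220.0 with DMSO in Med14 cells, and 16 and 16 raw counts behind the first pair. It changed by -4.79 ± 0.28 in Med17 cells and -2.03 in Med14 cells. CIS1, which binds Atg17 in the same complex, had the smallest fall of the role in Med17 cells at -2.14, and in Med14 cells changed by -1.62.

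The role's medians were -3.51 in Med17 cells and -1.61 in Med14 cells. With TMM scaling 4 of the 6 were called lower and 1 higher in Med17 cells (all genes 28.3% and 28.7%). In Med14 cells 1 was lower and 2 higher (all genes 23.3% and 25.4%). The higher calls in Med14 cells included ATG1, at 0.79 on the TMM scale (adjusted p = 0.000716), the reverse of its direction on the authors' scale.

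Among the genes of Atg9 traffic and lipid transfer, all 6 fell in both strains, with medians of -3.25 in Med17 cells and -1.68 in Med14 cells. ATG9, a transmembrane protein of the vesicles that seed the phagophore, had 80.9 and 86.7 normalized counts with auxin and 1102 and 1232 with DMSO in Med17 cells, and 217 and 248 with auxin and 846 and 933 with DMSO in Med14 cells. Auxin and DMSO libraries were apart in both strains, and the auxin libraries of the Med17 strain were the lowest. ATG9 changed by -3.80 ± 0.19 in Med17 cells and -1.94 ± 0.17 in Med14 cells (edgeR adjusted p = 2.38e-12 and 5.17e-09), which is -1.09 and -0.078 from the all-gene median. The lipid transfer protein gene ATG2 changed by -3.35 and -1.57, and the phosphoinositide-binding ATG21 least in Med17 cells, by -2.46, against -1.30 in Med14 cells. ATG27, a membrane protein that travels with Atg9, changed by -3.33 and -2.45. On the TMM scale 4 of the 6 were called lower and 0 higher in Med17 cells (all genes 28.3% and 28.7%). In Med14 cells 1 was lower and 2 higher (all genes 23.3% and 25.4%).

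All 4 genes of the phosphatidylinositol 3-kinase complex fell in both strains, with medians of -3.37 in Med17 cells and -1.58 in Med14 cells. ATG14, the subunit that brings the complex to the phagophore, had 7.88 and 5.90 normalized counts with auxin and 233 and 201 with DMSO in Med17 cells, and 30.7 and 34.2 with auxin and 179.5 and 188 with DMSO in Med14 cells. The first pair rested on 11 and 10 raw counts. Its changes were -4.97 ± 0.30 in Med17 cells and -2.50 in Med14 cells. YLR211C, described as a subunit that holds the autophagy-specific complex together, changed by -3.83 and -1.65, the lipid kinase gene VPS34 by -2.91 and -1.52, and VPS30, shared with an endosomal complex, by -2.36 and -1.30. After TMM scaling 2 of the 4 were called lower and 0 higher in Med17 cells (all genes 28.3% and 28.7%). In Med14 cells 1 was lower and 2 higher (all genes 23.3% and 25.4%).

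The ubiquitin-like conjugation genes include ATG8, which encodes the protein that is joined to phosphatidylethanolamine and coats the growing phagophore. ATG8 had 50.9 and 77.8 normalized counts with auxin and 552 and 619 with DMSO in Med17 cells, and 158 and 219 with auxin and 287 and 332 with DMSO in Med14 cells. All auxin libraries were below their own DMSO libraries, and the Med17 strain with DMSO was again the highest group and with auxin the lowest. ATG8 changed by -3.17 ± 0.24 in Med17 cells and by -0.73 ± 0.22 in Med14 cells, the smallest fall of any member there (edgeR adjusted p = 2.71e-10 and 0.00456). Without replicate 1 of the Med14 auxin group that change was -0.51, with an adjusted p of 0.062. Relative to the all-gene median ATG8 stood at -0.46 in Med17 cells and 1.13 in Med14 cells. ATG4, the protease that frees Atg8, changed by -4.05 and -1.65. ATG16, which tethers the Atg12-Atg5 conjugate to membrane, changed by -3.13 and -1.11, and the E1-like ATG7 by -3.60 and -1.60. All 8 of the role fell, with medians of -3.15 and -1.53. TMM scaling gave 3 called lower and 0 higher in Med17 cells (all genes 28.3% and 28.7%). In Med14 cells 0 were lower and 3 higher (all genes 23.3% and 25.4%).

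ATG19, the receptor that binds the Cvt cargo and links it to Atg8, had 123 and 131 normalized counts with auxin and 1575 and 1816 with DMSO in Med17 cells, and 247 and 269 with auxin and 1411 and 1718 with DMSO in Med14 cells. The DMSO groups of the strains overlapped, and both auxin groups were below them. ATG19 changed by -3.73 ± 0.17 in Med17 cells and -2.60 ± 0.16 in Med14 cells (edgeR adjusted p = 1.47e-12 and 1.06e-10). It has a close paralog, ATG34, and reads that both could take are uncertain. HRR25, the casein kinase that phosphorylates the receptor, changed by -2.45 and -1.59.

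**Figure D2:**
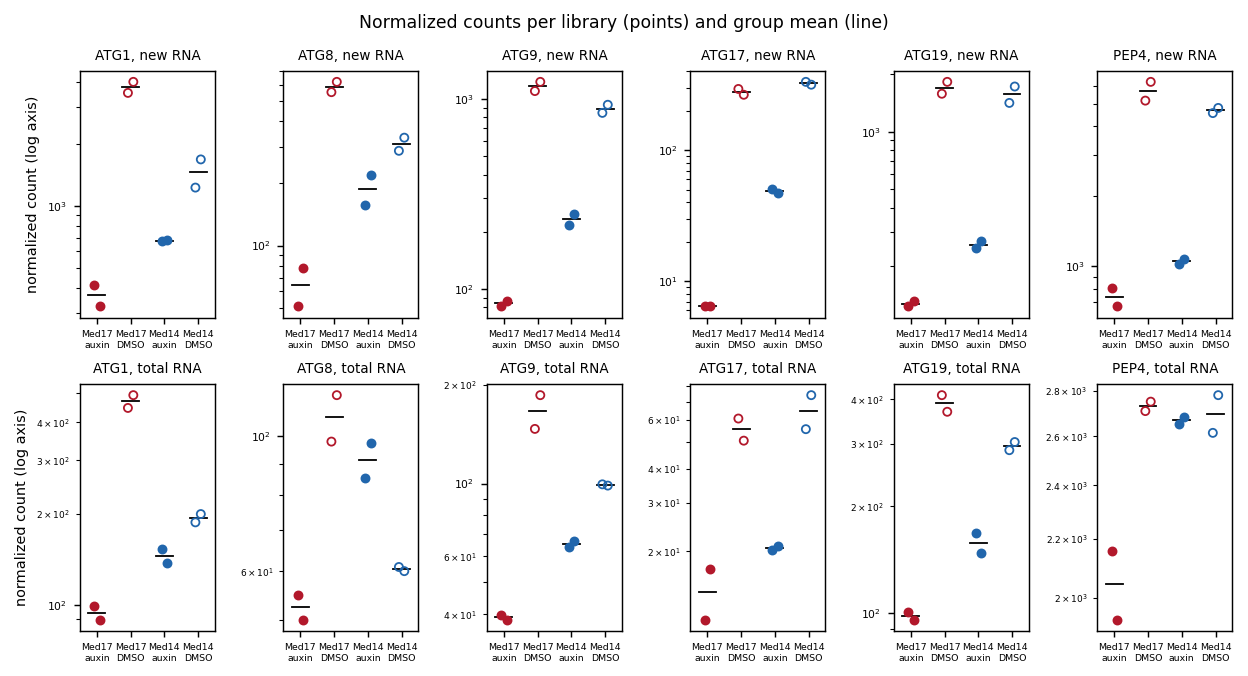
Normalized counts on a log axis of 6 members in newly synthesized RNA (top) and total RNA (bottom), with points for the 2 libraries of each group, filled for auxin and open for DMSO, and a line at the group mean. ATG1 and ATG8 are highest in Med17 cells with DMSO in both kinds of RNA, ATG8 total RNA is higher with auxin than with DMSO in Med14 cells, and PEP4 total RNA overlaps between auxin and DMSO in Med14 cells, while its newly synthesized RNA does not.

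The trafficking members fell with the rest. The 4 sorting nexins and PX-domain proteins had medians of -2.68 in Med17 cells and -1.31 in Med14 cells, the 9 TRAPP and Ypt1 genes -2.84 and -1.80, the 8 COG genes -3.14 and -1.77, and the 11 genes of vacuolar and endosomal fusion -3.08 and -1.54. SNX3, a sorting nexin for late-Golgi enzymes, was among the 3 smallest falls in Med17 cells, at -2.10, with 152 and 176 normalized counts with auxin and 690.2 and 714 with DMSO. SNX4, the nexin partner of Atg20, changed by -3.10 in Med17 cells and -1.16 in Med14 cells. YPT1 changed by -2.35 and -1.85, whereas YDR472W, a core TRAPP subunit that helps activate it, changed by -3.95 and -2.53. Within COG, the Golgi tethering complex, changes ran in Med17 cells between COG8 at -3.78 and COG6 at -2.38. On the TMM scale 2 nexins were called lower and 2 higher in Med17 cells, and 0 lower and 4 higher in Med14 cells. Of the fusion genes 5 were lower and 1 higher in Med17 cells, and 0 lower and 6 higher in Med14 cells. Of all genes 28.3% were lower and 28.7% higher in Med17 cells, and 23.3% and 25.4% in Med14 cells. TMM counts of the TRAPP and COG genes are not given here. On the authors' scale 4 of 4 nexins, 6 of 9 TRAPP and Ypt1, 6 of 8 COG and 8 of 11 fusion genes lay above the all-gene median in Med14 cells. In Med17 cells 2, 2, 3 and 2 did.

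The 6 other members all fell in both strains, with medians of -2.95 in Med17 cells and -2.30 in Med14 cells. RAS2, a GTPase that feeds protein kinase A, had 173 and 116 normalized counts with auxin and 2387 and 2592 with DMSO in Med17 cells, and 329 and 357 with auxin and 2648 and 2234 with DMSO in Med14 cells, and changed by -4.11 and -2.83 ± 0.18. YJL083W, described as an EH-domain protein that helps place Atg17, changed by -4.27 in Med17 cells and by -2.88 ± 0.23 in Med14 cells, the largest fall of any member there. Its paralog YKR019C, with the same described role, changed by -2.22 and -1.61. YPL250C, described as a partner of Atg9 that sets the rate of autophagosome formation and is raised through Gcn4 when autophagy is induced, had 557 and 315 normalized counts with auxin and 1688 and 1819 with DMSO in Med17 cells, and 209.7 and 266 with auxin and 1119 and 1460.1 with DMSO in Med14 cells. Its change of -2.01 ± 0.22 was the smallest fall in Med17 cells, while its -2.44 in Med14 cells was below the all-gene median. PEP4, which activates other vacuolar hydrolases, changed by -2.95 and -2.16.

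The fall in newly synthesized RNA was deeper in Med17 cells for nearly all members. With auxin the members kept a median of 11.8% of their DMSO level in Med17 cells, from 2.32% for ATG17 to 24.8% for YPL250C, and 32.9% in Med14 cells, from 13.5% for YJL083W to 60.7% for ATG8. In the test of the difference, the Med17 change minus the Med14 change, 60 of 64 were called lower and 0 higher, where 59.6% of all genes were called lower and 3.28% higher. No member was higher at an unadjusted p under 0.05 in edgeR or with DESeq2. The members not called were CIS1, YKR019C, YPL250C and ATG10. The median difference was -1.31, against -0.82 for all genes. With TMM scaling 28 were lower and 1 higher, where 16.4% and 18.1% of all genes were. The higher one was YPL250C, and the median member stood at -0.52.

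By role the strain difference was widest for the Atg1 complex, with a median of -2.17, then the conjugation genes at -1.94 and the phosphatidylinositol 3-kinase complex at -1.79. The sorting nexins stood at -1.51, the fusion genes at -1.43, Atg9 traffic at -1.32, COG at -1.21, TRAPP and Ypt1 at -1.13, the receptor and its kinase at -0.996 and the other members at -0.90. These medians are descriptions, and roles were not tested against each other. YPL166W differed by -2.76 ± 0.36, ATG17 by -2.69 ± 0.36, ATG14 by -2.46 ± 0.40, ATG8 by -2.45 ± 0.32 and ATG1 by -2.24 ± 0.24, with adjusted p-values of 1.67e-05, 1.82e-05, 8.09e-05, 1.52e-05 and 2.72e-06 from edgeR. All 5 were also lower with TMM scaling, at -1.98, -1.91, -1.69, -1.65 and -1.47. ATG9 differed by -1.86 ± 0.24 and ATG19 by -1.13 ± 0.22. At the other end YPT1 differed by -0.50 ± 0.19, a call that was lost without any of 6 of the 8 libraries, with adjusted p-values up to 0.141. CIS1 was at -0.51 ± 0.42 and YPL250C at 0.43 ± 0.30. The value for YPL250C was 0.79 (adjusted p = 0.0241) without replicate 2 of the Med17 auxin group and -0.035 without its replicate 1, and that for CIS1 was -0.91 without replicate 1 and 0.020 without replicate 2 of the Med14 auxin group.

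**Figure D3:**
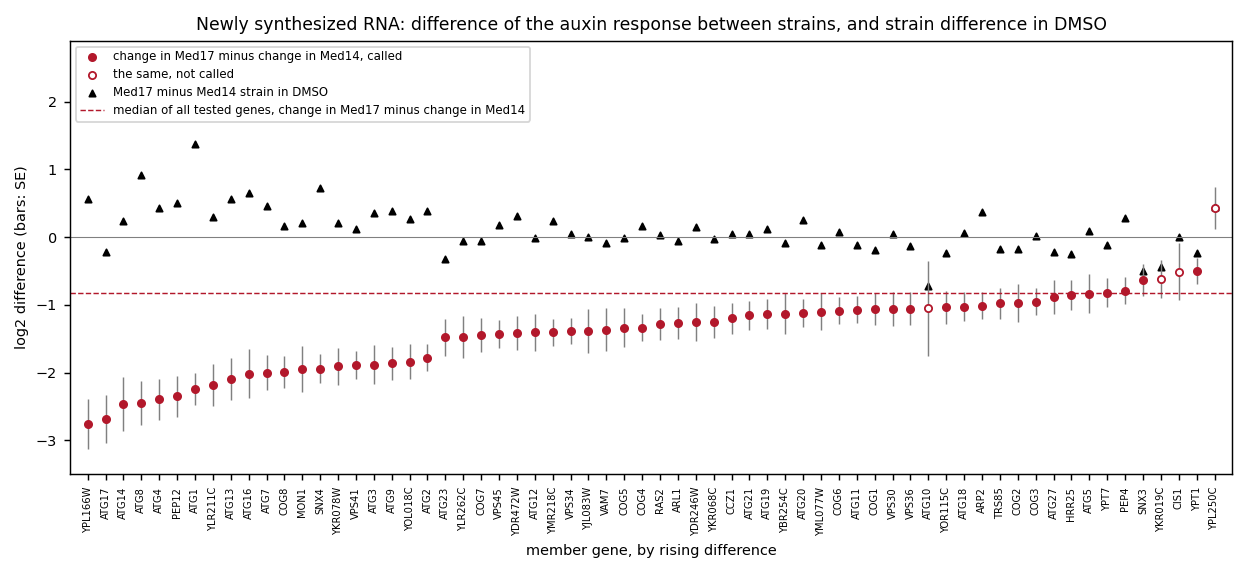
Circles give, for each member, the newly synthesized RNA change of the Med17 strain minus that of the Med14 strain in log2 with its SE, filled where called, in order of size, and triangles give the Med17 minus Med14 strain difference in DMSO. YPL166W at -2.76 and ATG17 at -2.69 are lowest, YPL250C alone lies above 0, and the triangles of ATG1 and ATG8 are the highest.

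On the authors' scale few members were called between the degron strains without auxin. The share called higher, 6.25% in newly synthesized RNA and 11.1% in total RNA, was close to that of all genes. The share called lower, 1.56% in newly synthesized RNA and 0% in total RNA, was below the 24.1% and 5.83% of all genes. The median member differed by 0.058 in newly synthesized RNA, against -0.21 for all genes, and 55 of 64 members lay above that all-gene median. In total RNA the medians were 0.23 and 0.076, and 48 of 63 members lay above. In newly synthesized RNA with DMSO, 4 members were called higher and 1 lower in Med17 cells than in Med14 cells, where 6.04% of all genes were higher and 24.1% lower. ATG1 differed by 1.37 ± 0.17, ATG8 by 0.91 ± 0.22, SNX4 by 0.73 and ATG2 by 0.39, and SNX3 by -0.50 (edgeR adjusted p for ATG1 and ATG8 = 1.6e-05 and 0.00428). The SNX3 call was lost without any 1 of the 4 DMSO libraries, and that of ATG8 without replicate 2 of the Med17 DMSO group. With TMM scaling 21 were higher and 0 lower, where 13.9% and 17.7% of all genes were. ATG9 differed by 0.39 and ATG19 by 0.12, neither of them called. ATG10 was lowest at -0.72 ± 0.44 and YKR019C stood at -0.44, both not called.

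In total RNA with DMSO, 7 members were higher in Med17 cells and 0 lower, where 9.69% of all genes were higher and 5.83% lower. DESeq2 also called 7 higher and 0 lower, and no member was lower at an unadjusted p under 0.05 in edgeR. The 7 were ATG1, ATG8, ATG9, SNX4, YDR472W, ARP2 and YPL250C. ATG1 had 447 and 492 normalized counts in Med17 cells and 187 and 199 in Med14 cells, a difference of 1.28 ± 0.13 (edgeR adjusted p = 5.36e-05). YPL250C differed by 0.98 ± 0.20, ATG8 by 0.84 and ATG9 by 0.77. The count of members called fell when single DMSO libraries were left out, and this loss was not set against that of all genes. ATG16, at 1.11 ± 0.36, and ATG19, at 0.40 ± 0.12, missed the threshold (adjusted p = 0.0576 and 0.0515), and ATG23, ATG17 and COG2 were lowest at -0.29, -0.24 and -0.12, none of them called. ATG1 and ATG8 were thus highest in Med17 cells with DMSO and lowest in the same strain with auxin. The Med17 over Med14 ratio of group means in newly synthesized RNA was -0.87 (log2) with auxin and 1.37 with DMSO for ATG1, and -1.55 and 0.92 for ATG8. With TMM scaling 8 were higher and 0 lower in total RNA with DMSO, where 8.57% and 9.92% of all genes were. The strain difference of the auxin change shares its DMSO libraries with this comparison.

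In total RNA the fall was smaller and less general. In the Med17 strain 62 of 63 tested members were lower and 0 higher, where 87.4% of all genes were lower and 2.42% higher, with a median of -1.77. By edgeR at an unadjusted p under 0.05 and by DESeq2 the counts were the same. CIS1 was the member not called, at -0.29 ± 0.23 (adjusted p = 0.24). In the Med14 strain 47 of 63 were lower and 1 higher, where 75.1% of all genes were lower and 1.62% higher, with a median of -0.71, and DESeq2 called 37 lower and 0 higher. All 64 members had both auxin libraries below both DMSO libraries in Med17 cells, as had 56 in Med14 cells, where ATG8 and ATG10 were above and 6 overlapped. ATG10, not tested in total RNA, rested on 8 and 6 raw counts with auxin and 6 and 5 with DMSO in Med14 cells. In Med17 cells it had 3 and 2 against 7 and 12. The count of separated members was not made over all genes, most of which were called lower, so it does not set the members apart. TMM scaling gave 31 lower and 4 higher in Med17 cells (all genes 31.0% and 26.7%), and 9 lower and 9 higher in Med14 cells (all genes 17.6% and 19.6%).

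ATG8 was the member called higher in total RNA of the Med14 strain. It had 54.9 and 49.99 normalized counts with auxin and 97.8 and 117 with DMSO in Med17 cells, and 85.3 and 97.3 with auxin and 61.0 and 60.0 with DMSO in Med14 cells. Both auxin libraries of the Med14 strain were above their DMSO libraries, the reverse of the Med17 strain. ATG8 changed by -1.05 ± 0.18 in Med17 cells and 0.59 ± 0.20 in Med14 cells (edgeR adjusted p = 0.000128 and 0.0163). The Med14 call was lost with DESeq2 (adjusted p = 0.0719) and without replicate 1 or 2 of DMSO or replicate 2 of auxin (adjusted p = 0.05002, 0.0634 and 0.0792), at 0.49 or more in each case. The Med17 fall turned to 0.20 with TMM scaling, which was not called. The difference between the strains was -1.63 ± 0.27 (adjusted p = 0.00166).

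Of the Atg1 complex and its scaffolds, 5 of 6 were called lower in total RNA of the Med17 strain and 2 of 6 in Med14 cells. Of all genes, 87.4% and 75.1% were called lower. The smallest changes of the role were -0.29 and -0.20, so that all 6 were below 0 in both strains. ATG1 had 99.2 and 89.3 normalized counts with auxin and 447 and 492 with DMSO in Med17 cells, and 153 and 138 with auxin and 187 and 199 with DMSO in Med14 cells. The auxin groups were below their DMSO groups, narrowly in Med14 cells. ATG1 changed by -2.32 ± 0.13 in Med17 cells and -0.41 ± 0.14 in Med14 cells, and the Med14 call was lost with DESeq2 and without replicate 2 of DMSO or of auxin (adjusted p = 0.0653, 0.0769 and 0.0956). ATG17 changed by -1.94 and -1.65 ± 0.30, and YPL166W by -2.48 ± 0.42 and -0.48, its second value not called. All 7 tested conjugation genes were called lower in Med17 cells, with a median of -2.07. In Med14 cells 4 were called lower and 1, ATG8, higher, with a median of -0.71. ATG5, the protein joined to Atg12, was among the lowest in Med17 cells at -2.49 ± 0.23, and changed by -1.31 in Med14 cells. ATG14 was lowest of all in Med17 cells at -3.21 ± 0.54, from only 10 and 1 raw counts with auxin against 34 and 56 with DMSO.

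ATG9 had 39.8 and 38.5 normalized counts with auxin and 147 and 186 with DMSO in Med17 cells, and 63.97 and 66.7 with auxin and 99.5 and 98.6 with DMSO in Med14 cells. It changed by -2.10 ± 0.18 in Med17 cells and -0.60 ± 0.19 in Med14 cells, where the call was lost with DESeq2 and without replicate 1 of auxin (adjusted p = 0.0556 and 0.0612). ATG19 had 101 and 95.9 normalized counts with auxin and 411 and 369 with DMSO in Med17 cells, and 168 and 147 with auxin and 288 and 303 with DMSO in Med14 cells, with no overlap between auxin and DMSO, and changed by -1.98 ± 0.13 and -0.90 ± 0.14 (edgeR adjusted p = 2.29e-07 and 0.00014). In the Med14 strain YJL083W and RAS2 joined ATG17 as the lowest, at -1.98 ± 0.24 and -1.56 ± 0.14, and ATG2 and PEP4 were, after ATG8, the highest at -0.13 ± 0.14 and -0.016 ± 0.11, neither called. YPT1 was among the smallest falls in Med17 cells at -0.64 ± 0.11, and PEP4 followed at -0.42 ± 0.11. The PEP4 call had an adjusted p of 0.00324, and 0.0507 without replicate 2 of auxin. The directions of YPT1, PEP4 and CIS1 in Med17 cells turned positive with TMM scaling, at 0.62, 0.84 and 0.96.

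The strain difference in total RNA was called lower for 40 of 63 members and higher for 0, where 41.3% of all genes were lower and 1.23% higher, and its median was -0.87, against -0.54 for all genes. DESeq2 called 33 lower and 0 higher and gave no adjusted p for 3, and no member was higher at an unadjusted p under 0.05 in edgeR. On the TMM scale 8 were lower and 0 higher, where 5.64% and 8.8% of all genes were. ATG1 differed by -1.91 ± 0.20 (edgeR adjusted p = 0.000201), ATG9 by -1.50 ± 0.27 and ATG19 by -1.08 ± 0.19. ATG16 at -2.01 ± 0.63 and YPL166W at -2.001 ± 0.62 were lowest but rested on few reads, ATG16 on 8 and 9 raw counts in Med17 auxin and 7 and 13 in Med14 auxin. Leaving out a library ended the ATG16 call for 4 of the 8 (adjusted p 0.057 to 0.159) and the YPL166W call for 4 (adjusted p 0.054 to 0.101). VPS36 of the ESCRT-II complex, the Golgi GTPase gene ARL1 and CIS1 were highest at -0.15 ± 0.22, -0.10 ± 0.21 and 0.23 ± 0.35, none called. ATG17, among the widest in newly synthesized RNA, differed in total RNA by -0.29 ± 0.44, which was not called.

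Newly synthesized RNA was next set against total RNA, where on the authors' scale most genes of the whole table, members or not, fell further in newly synthesized RNA. In a fit of all 16 libraries, the change in newly synthesized RNA minus that in total RNA was called lower for 59 of 64 members and higher for 0 in Med17 cells, where 84.1% of all genes were lower and 0.281% higher, with a median of -1.44. In the Med14 strain it was 52 and 0, where 79.6% and 0.0165% of all genes were, with a median of -0.91. DESeq2 called 58 and 50 lower and 0 higher in both, and no member was higher at an unadjusted p under 0.05 in edgeR. The fit of all 16 libraries did not pair the kinds of RNA, so its SEs and p-values take same-numbered libraries as independent. Yet replicate differences of newly synthesized and total RNA correlated across genes with r = 0.60 in Med17 and 0.48 in Med14 cells with DMSO. With auxin these were 0.073 and 0.18. With TMM scaling, under which the all-gene medians were 0.068 and 0.12, 5 were lower and 6 higher in Med17 cells (all genes 15.0% and 14.5%), and 1 lower and 1 higher in Med14 cells (all genes 10.8% and 3.52%). Scaling by total counts turned the direction round, with 2 lower and 34 higher in Med17 cells (all genes 5.4% and 52.5%), and 1 lower and 43 higher in Med14 cells (all genes 5.07% and 52.6%).

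PEP4 stood at the low end in both strains. In newly synthesized RNA it had 804 and 672 normalized counts with auxin and 5167 and 6223 with DMSO in Med17 cells, and 1018 and 1078 with auxin and 4566 and 4805 with DMSO in Med14 cells. In total RNA it had 2158 and 1930.0 normalized counts with auxin and 2708 and 2749.9 with DMSO in Med17 cells, and 2652 and 2683 with auxin and 2614 and 2779 with DMSO in Med14 cells. Its auxin and DMSO libraries were far apart in newly synthesized RNA, close in total RNA of the Med17 strain and overlapping in total RNA of the Med14 strain. The change in newly synthesized RNA minus that in total RNA was -2.53 ± 0.18 in Med17 cells and -2.14 ± 0.17 in Med14 cells (edgeR adjusted p = 1.9e-09 and 1.4e-08). ATG17 had the widest gap in Med17 cells at -3.46 ± 0.41, and ATG10 in Med14 cells at -2.38 ± 0.66 on 8 and 6 raw total RNA counts with auxin. YPL250C and ATG5 had the smallest gaps between the kinds of RNA in Med17 cells, at -0.069 ± 0.35 and -0.40 ± 0.34, as had YDR246W, a core TRAPP subunit, and the syntaxin gene PEP12 in Med14 cells, at -0.15 ± 0.31 and -0.40 ± 0.33, all 4 not called. ATG8 had gaps of -2.13 ± 0.31 and -1.31 ± 0.31, ATG9 -1.70 and -1.34, ATG19 -1.75 and -1.70, and ATG1 -1.03 and -0.70. The ATG1 call in Med14 cells was lost without replicate 2 of the DMSO group of newly synthesized RNA or replicate 1 of the auxin group of total RNA (adjusted p = 0.0708 and 0.059). With TMM scaling ATG1 turned positive in both strains, at 0.37 and 0.48.

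**Figure D4:**
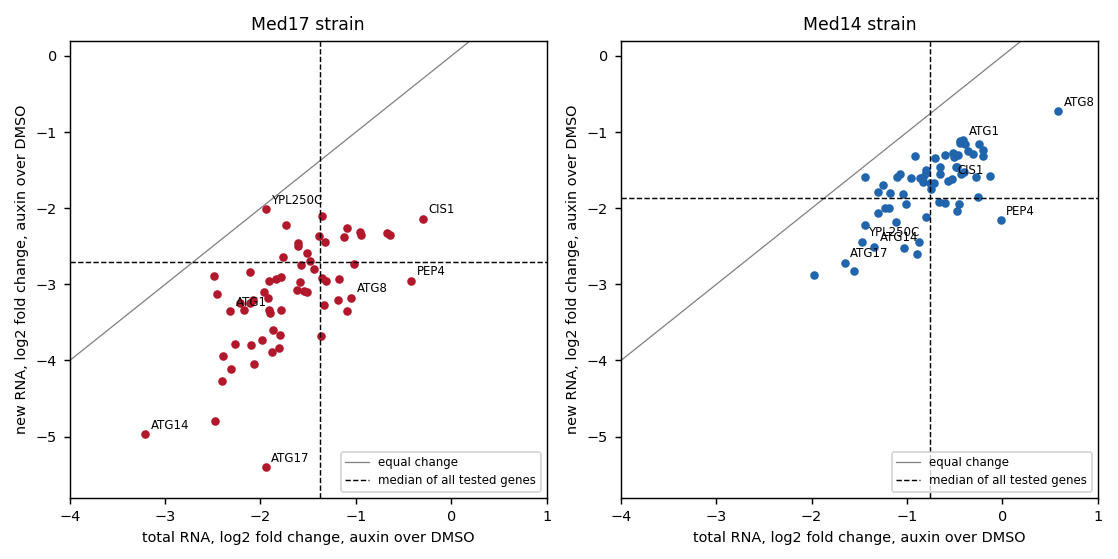
Each point is a member, with its log2 change in total RNA on the x axis and in newly synthesized RNA on the y axis, auxin over DMSO, for the Med17 strain (left) and the Med14 strain (right), and dashed lines at the medians of all tested genes. PEP4 lies well below the line of equal change, with joint-fit gaps of -2.53 and -2.14.

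Across members the changes of the strains went together loosely, with r = 0.53 over the 64 members in newly synthesized RNA and 0.58 over 63 in total RNA, where members share their libraries. Transcript length was not closely related to the change, with r between 0.043 and 0.29 over the members in the 4 auxin comparisons.

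The other genes of the pathway, from lists of autophagy, signalling, regulator, fusion and hydrolase genes, also mostly fell on the authors' scale. Of all genes, 95.0% were called lower in newly synthesized RNA of the Med17 strain and 94.2% in Med14 cells. All 11 further autophagy genes fell in newly synthesized RNA of both strains, with medians of -3.22 in Med17 cells and -1.62 in Med14 cells. The fall was called for 11 and 10 of them. ATG34, the paralog of ATG19, was lowest in Med17 cells at -5.76 ± 0.32 and changed by -2.55 ± 0.24 in Med14 cells, whereas ATG32, the mitophagy receptor, was the smallest fall in Med17 cells at -1.14 ± 0.19. All 23 genes of TORC1 and the kinases around it fell in both strains, with medians of -2.49 and -1.49, above the all-gene medians. All 11 tested transcription regulators of ATG genes fell, with medians of -2.43 and -1.64. Among 10 further vacuolar hydrolases all fell, with medians of -3.14 and -2.37. In total RNA 10 were called lower in Med17 cells and 5 in Med14 cells, where 87.4% and 75.1% of all genes were. LAP4, the aminopeptidase that is the main Cvt cargo, was the lowest of them in Med17 cells at -5.41 ± 0.19, against -2.57 ± 0.16 in Med14 cells, and with DMSO was 1.83 ± 0.16 higher in Med17 cells. The 9 further vacuolar fusion genes all fell in both strains and both kinds of RNA.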

How the data were processed

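Newly synthesized and total RNA of yeast cultures were sequenced as 16 stranded TruSeq libraries after removal of ribosomal RNA, per the labels' protocols. Both kinds of RNA carry the same strain, treatment and replicate labels, so 16 libraries are not 16 separate cultures by the labels. The demultiplexer was bcl2fastq 2.17.1.14 and the build sacCer3, per the submitters' processing notes. No source used here names the aligner, the counting program or its strand setting. The authors deposited raw counts per gene and a normalized signal, which is each raw count multiplied by its library's constant. Cells of Schizosaccharomyces pombe were mixed in before extraction, per the labels, and no source used here says how the constants were made. Deposited comparisons between numbered groups were not used.

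Raw counts were fitted with edgeR 4.0.16 (quasi-likelihood F test, R 4.3.3), 8 libraries of a kind of RNA per fit or 16 in the joint fit, with the authors' constants as offsets and the genes kept by filterByExpr (6072 in newly synthesized, 5625 in total RNA, 6057 jointly). Calls are at an adjusted p (Benjamini-Hochberg, all fitted genes) under 0.05. The fit was tested on simulated data in which 200 genes changed, some up and some down, with the true library factors supplied. That simulation cannot check the authors' constants or a fall of most genes. Alternatives were TMM, RLE and total-count scaling, DESeq2 1.42.0, other filters, replicate blocks and leaving out each library. A comparison of 2 against 2 libraries allows no exact p below 0.333 for a single value.

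The members and gene lists were chosen with earlier results of these data known. Named in full were ATG1, ATG8, ATG9, ATG19 and, per comparison, the 3 lowest and 3 highest members (2 and 2 for newly synthesized against total RNA). Other members named by role were chosen after their values were seen. ATG16 and YLR262C overlap another listed gene by over 100 bases, and reads there, like those of paralogs, are uncertain.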

Additional observations from a re-analysis of the deposited data

Results flagged for a closer look

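The following members differed between the Med17 and Med14 strains in their auxin change, by the test of the difference itself (edgeR, called after adjustment over all genes). Values are the Med17 change minus the Med14 change in log2. In newly synthesized RNA YPL166W was at -2.76, ATG17 at -2.69, ATG14 at -2.46, ATG8 at -2.45, ATG1 at -2.24, ATG9 at -1.86, ATG19 at -1.13 and YPT1 at -0.50. In total RNA ATG16 was at -2.01, YPL166W at -2.001, ATG1 at -1.91, ATG8 at -1.63, ATG9 at -1.50 and ATG19 at -1.08. Some of these rest on few raw counts in Med17 cells with auxin. In total RNA ATG16 had 8 and 9 and YPL166W 14 and 4. In newly synthesized RNA ATG17 had 9 and 11, ATG14 11 and 10, and YPL166W 16 and 16. The YPT1 value of -0.50 is smaller in size than the all-gene median of -0.82, and with TMM scaling it turned to 0.29. The Med17 strain with DMSO had more ATG1 and ATG8 RNA than the Med14 strain with DMSO, and the part of that gap in these differences was not tested. No group had enough libraries for a search for single outlying samples.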

How the results depend on the processing

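Under another scaling 152 named values kept their direction and side of the threshold, 72 turned sign, 35 lost the call and 8 gained it, while most counts of members moved. All-gene shares stand above for TMM scaling, and for total-count scaling only where newly synthesized RNA is set against total RNA. Other member counts under RLE or total-count scaling, those by DESeq2 and those with 1 library left out have no all-gene share beside them. They show the effect of the setting and cannot be read against the background. For newly synthesized RNA of the Med17 strain the members lower and higher were 31 and 8 under TMM scaling, 29 and 9 under RLE scaling and 36 and 2 under total-count scaling, and signs turned with TMM scaling for CIS1 0.55, SNX3 0.59 and YPL250C 0.65, with RLE scaling for CIS1 0.56, SNX3 0.61 and YPL250C 0.66, with total-count scaling for CIS1 0.44, SNX3 0.49 and YPL250C 0.54. For newly synthesized RNA of the Med14 strain the members lower and higher were 8 and 24 under TMM scaling, 8 and 21 under RLE scaling and 6 and 35 under total-count scaling, and signs turned with TMM scaling for the median 0.27, ATG16 0.78, ATG1 0.79 and ATG8 1.16, with RLE scaling for the median 0.24, ATG16 0.75, ATG1 0.76 and ATG8 1.13, with total-count scaling for the median 0.47, ATG16 0.97, ATG1 0.99, ATG8 1.36 and ATG9 0.15. For total RNA of the Med17 strain the members lower and higher were 31 and 4 under TMM scaling and 28 and 7 under RLE scaling, and signs turned with TMM scaling for YPT1 0.62, PEP4 0.84, CIS1 0.96 and ATG8 0.20, with RLE scaling for YPT1 0.71, PEP4 0.94, CIS1 1.06 and ATG8 0.29, with total-count scaling for PEP4 0.097 and CIS1 0.22. For total RNA of the Med14 strain the members lower and higher were 9 and 9 under TMM scaling, 8 and 10 under RLE scaling and 26 and 2 under total-count scaling, and signs turned with TMM scaling for the median 0.0057, ATG2 0.59, PEP4 0.70, ATG1 0.31 and ATG9 0.11, with RLE scaling for the median 0.040, ATG2 0.63, PEP4 0.74, ATG1 0.34 and ATG9 0.15, with total-count scaling for ATG2 0.21 and PEP4 0.33. For the strain difference in newly synthesized RNA the members lower and higher were 28 and 1 under TMM scaling, 26 and 1 under RLE scaling and 49 and 1 under total-count scaling, and signs turned with TMM scaling for CIS1 0.28 and YPT1 0.29, with RLE scaling for CIS1 0.33 and YPT1 0.34. For the strain difference in total RNA the members lower and higher were 8 and 0 under TMM scaling and 7 and 0 under RLE scaling, and signs turned with TMM scaling for VPS36 0.38 and ARL1 0.44, with RLE scaling for VPS36 0.44 and ARL1 0.50, with total-count scaling for VPS36 0.014 and ARL1 0.066. For newly synthesized RNA with DMSO, Med17 minus Med14 the members lower and higher were 0 and 21 under TMM scaling, 0 and 21 under RLE scaling and 0 and 21 under total-count scaling. For newly synthesized minus total RNA in Med17 cells the members lower and higher were 5 and 6 under TMM scaling, 7 and 3 under RLE scaling and 2 and 34 under total-count scaling, and signs turned with TMM scaling for ATG5 1.003, YPL250C 1.32 and ATG1 0.37, with RLE scaling for ATG5 0.88, YPL250C 1.20 and ATG1 0.25, with total-count scaling for the median 0.62, ATG5 1.65, YPL250C 1.97, ATG1 1.02, ATG9 0.38 and ATG19 0.31. For newly synthesized minus total RNA in Med14 cells the members lower and higher were 1 and 1 under TMM scaling, 4 and 1 under RLE scaling and 1 and 43 under total-count scaling, and signs turned with TMM scaling for the median 0.26, PEP12 0.77, YDR246W 1.03 and ATG1 0.48, with RLE scaling for the median 0.11, PEP12 0.63, YDR246W 0.88 and ATG1 0.33, with total-count scaling for the median 0.84, PEP12 1.34, YDR246W 1.60, ATG1 1.05, ATG8 0.43, ATG9 0.41 and ATG19 0.040.

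Outside scaling, the named values kept their direction and side of the threshold in 905 cases, lost the call in 39, gained it in 9 and turned sign in 12. DESeq2 called 0 members higher in total RNA of the Med14 strain, where edgeR called 1. Leaving out 1 library at a time gave 0 to 1 for members called higher in total RNA of the Med14 strain and -0.29 to 0.059 for ATG2 in total RNA of the Med14 strain. Further ranges were -0.059 to 0.029 for PEP4 in total RNA of the Med14 strain, -0.95 to 0.020 for CIS1 in the strain difference in newly synthesized RNA, -0.035 to 0.79 for YPL250C in the strain difference in newly synthesized RNA, 0 to 1 for members called higher in the strain difference in newly synthesized RNA, -0.27 to 0.11 for ARL1 in the strain difference in total RNA, -0.018 to 0.27 for ATG19 in newly synthesized RNA with DMSO, Med17 minus Med14, 0 to 1 for members called lower in newly synthesized RNA with DMSO, Med17 minus Med14, 2 to 5 for members called higher in newly synthesized RNA with DMSO, Med17 minus Med14, 1 to 6 for members called higher in total RNA with DMSO, Med17 minus Med14, -0.25 to 0.040 for COG2 in total RNA with DMSO, Med17 minus Med14, -0.32 to 0.059 for YDR246W in newly synthesized minus total RNA in Med14 cells, and -0.53 to 0.29 for YPL250C in newly synthesized minus total RNA in Med17 cells. The cause of these shifts was not tested.

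With the replicate number as a block, 7 members were higher in newly synthesized RNA with DMSO, with 6.18% of all genes, against 4 members without the block, and no other count moved by over 1.5 times. Nothing in the labels says that a number marks a shared batch. Same-numbered libraries of a strain deviated together with r = 0.19 (Med17) and 0.44 (Med14) in newly synthesized RNA, and 0.23 and 0.11 in total RNA, but those of the DMSO groups of both strains with -0.28 and -0.32. Between newly synthesized and total RNA of the same group, r was 0.60 (Med17) and 0.48 (Med14) with DMSO, and 0.073 and 0.18 with auxin. A crossed pairing, added after seeing the data, called 2 lower and 12 higher in newly synthesized RNA with DMSO, where 29.7% and 7.76% of all genes were. Depth limits ATG10, ATG14, ATG16, ATG17 and YPL166W, which had from 1 to 39 raw counts in libraries of the Med17 strain with auxin.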

Other observations

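ATG8 was taken as a reference pattern, and the 5 genes whose group means were most like its own over the 8 groups were PSK1, YBR045C, RMD5, NPL4 and YGR130C, with Pearson's r of 0.984, 0.983, 0.983, 0.978 and 0.978 on log2(normalized count + 1), out of 5204 genes. None of them is a member. The groups include the general fall with auxin and the gap between the kinds of RNA, which most genes share. After the median gene of each group was subtracted, the 5 most alike were YBR281C, CAT2, YML121W, YPL034W and YGR205W, with r between 0.893 and 0.914, again no members and none of the first 5. The member most like ATG8 was ATG2, at 0.975 before and 0.738 after the subtraction. With 5 genes taken out of 5204, the absence of members does not set ATG8 apart from them.

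The members' share of all raw counts is given as a value. In newly synthesized RNA it was 0.460% and 0.481% with auxin and 0.580% and 0.599% with DMSO in Med17 cells, and 0.613% and 0.618% with auxin and 0.460% and 0.487% with DMSO in Med14 cells. Auxin libraries were below DMSO libraries in Med17 cells and above them in Med14 cells. In total RNA it was 0.206% and 0.198% with auxin and 0.323% and 0.342% with DMSO in Med17 cells, and 0.289% and 0.257% with auxin and 0.301% and 0.320% with DMSO in Med14 cells, with the auxin libraries below in both.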
